A study of Mus musculus with 2 samples.

Results

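The *Meis*, *Pbx* and *Pknox* genes encode homeodomain proteins that act as DNA-binding partners of HOX proteins. The 8 genes described here, *Meis1*, *Meis2*, *Meis3*, *Pbx2*, *Pbx3*, *Pbx4*, *Pknox1* and *Pknox2*, were taken by symbol from the gene tables of both samples, and all 8 are among the 29311 genes that the tables list. RNA-seq was performed on 1 sample of ES cells (strain E14, wild type, grown without feeders in serum and LIF) and on 1 sample of E10.5 forebrain (strain B6CBAF1/J, wild type, a dissected tissue). The study used these samples to ask whether *Hox* genes are transcribed in cells where their clusters are inactive, and the levels of the partner genes in the same cells are given here. With 1 sample per group there is no replicate check and no test between the conditions, and cell type, strain and culture cannot be told apart.

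PBX proteins bind DNA together with HOX proteins, which changes the sites that HOX proteins recognise. MEIS and PKNOX proteins (the latter also known as PREP) bind PBX proteins through their amino-terminal part, a step known to favour the presence of PBX in the nucleus, and MEIS and PKNOX compete for the same PBX surface. All of them belong to the TALE class, named for a loop extension in the homeodomain. In the head, where *Hox* genes are largely silent, the same cofactors are known to work with other transcription factors, such as PAX6 and DLX proteins.

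The loop extension is encoded by codons for proline, tyrosine and proline, and the 60 bases of coding sequence around these codons are shown because they define the class and because they tell how far reads of these genes can be distinguished. The sequences are those of annotated coding transcripts (GENCODE, build NCBIM37), written 5′ to 3′, with the 9 bases of the loop codons in capitals.
Meis1: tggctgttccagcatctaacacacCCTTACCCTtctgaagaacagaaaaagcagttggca
Meis2: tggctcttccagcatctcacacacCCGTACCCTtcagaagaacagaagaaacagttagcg
Meis3: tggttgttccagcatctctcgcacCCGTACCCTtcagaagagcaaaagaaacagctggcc
Pbx2: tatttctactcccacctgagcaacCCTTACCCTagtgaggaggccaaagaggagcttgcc
Pbx3: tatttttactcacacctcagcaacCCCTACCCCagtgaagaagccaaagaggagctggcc
Pbx4: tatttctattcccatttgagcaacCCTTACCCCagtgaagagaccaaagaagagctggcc
Pknox1: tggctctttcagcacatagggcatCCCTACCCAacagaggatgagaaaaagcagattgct
Pknox2: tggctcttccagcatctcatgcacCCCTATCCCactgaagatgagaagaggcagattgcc

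In the *Pbx* genes these bases lie within 1 exon, at chr17:34731576-34731635 (plus strand) for *Pbx2*, chr2:34060327-34060386 (minus strand) for *Pbx3* and chr8:72390416-72390475 (plus strand) for *Pbx4*. In the *Meis* and *Pknox* genes they are divided over 2 exons, so that their first and last positions enclose an intron. These positions are chr11:18805730-18841682 (minus strand) for *Meis1*, chr2:115747446-115825887 (minus strand) for *Meis2* and chr7:16767797-16769178 (plus strand) for *Meis3*. For *Pknox1* and *Pknox2* they are chr17:31736568-31739769 (plus strand) and chr9:36702934-36717234 (minus strand). Over the 189 bases of the homeobox, the *Meis* genes were 82.0 to 84.7% identical to each other, the *Pbx* genes 79.4 to 82.5%, and *Pknox1* and *Pknox2* 78.3%. *Meis* and *Pknox* genes shared 65.1 to 71.4% of these bases, whereas the *Pbx* genes shared 44.4 to 53.4% with either. The longest run of identical bases between coding transcripts of any pair of the 8 genes was 32 (*Meis1* and *Meis2*), which is shorter than the reads (50 bp in the methods of the study, 100 bp in the sample labels). Of all windows of 50 bases in the exons, 0% (*Meis3*, *Pbx2*, *Pbx3* and *Pknox2*) to 1.99% (*Meis2*) had an identical copy elsewhere in NCBIM37.

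In the tables each gene has 1 value in each sample, named RPKM by the authors, and no read count. The number of reads was inferred from the steps between low values, as described under the processing, and amounted to 42.8 M reads on genes for the ES cells and 59.8 M for the forebrain. The deposited values were 52.2 times (ES cells) and 49.0 times (forebrain) the reads per kb per M inferred reads on genes. Levels printed here as RPKM keep the deposited scale, so low values stand for fewer reads than a usual RPKM of that size. Intervals below are exact 95% intervals on these inferred reads and cover counting error only. All 8 cofactor genes had at least 3 inferred reads in both samples, the level taken as the floor of detection, and the lowest number was 23 reads (*Pknox2* in ES cells). The cell type markers followed the sample labels. All 8 ES cell markers tested were at least 2-fold higher in ES cells (*Pou5f1* at an RPKM of 11244 compared with 42.9), and all 8 forebrain markers were at least 2-fold higher in E10.5 forebrain (*Nes* at an RPKM of 183 in ES cells and 4127 in forebrain).

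Of the 8 cofactor genes, 7 had an RPKM at least 2-fold higher in E10.5 forebrain and 0 were at least 2-fold higher in ES cells, on log2(RPKM + 1). Of all listed genes, 25.8% were at least 2-fold higher in forebrain and 23.3% at least 2-fold higher in ES cells. *Pknox1* was the exception and had similar values in both samples. At least 4-fold higher values in forebrain were found for 6 genes, all but *Pbx4* and *Pknox1*, against 14.4% of listed genes (11.3% of listed genes were at least 4-fold higher in ES cells). The median log2 ratio of forebrain over ES cells was 2.96 for the 8 genes and 0.01 for all listed genes. On this scale the pseudocount of 1 makes differences between low values look smaller than they are. In samples of bulk tissue, fewer cells with a transcript and less RNA per cell cannot be told apart.

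**Figure D1:**
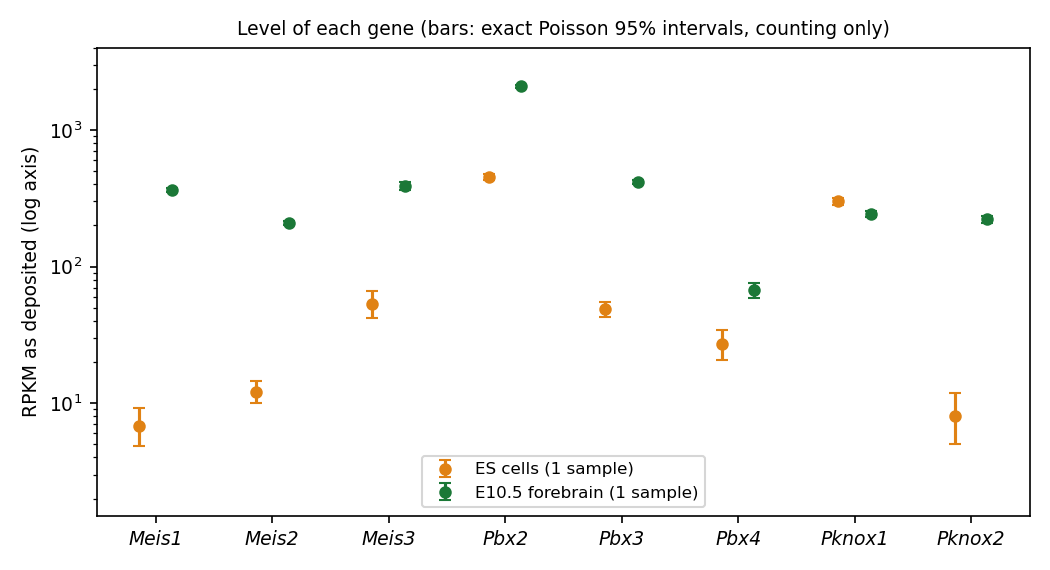
RPKM as deposited (log axis) of each gene in the ES cell sample (orange) and the E10.5 forebrain sample (green), with bars for exact Poisson 95% intervals of the inferred reads. *Meis1*, *Meis2* and *Pknox2* lie at 6.85 to 12.03 in ES cells and at 208 to 364 in forebrain, whereas *Pknox1* lies at 301 and 243.

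Among the genes of the MEIS subfamily, which encode proteins that bind PBX, *Meis1* showed the largest difference of the 8 genes. *Meis1* (ENSMUSG00000020160, chr11:18780433-18918961, minus strand) had an RPKM of 6.85 in ES cells (4.86 to 9.18, 41 reads) and of 364 in E10.5 forebrain (352 to 377, 3288 reads). Its level was therefore 53.2-fold higher in forebrain (39.6 to 75.1). On log2(RPKM + 1) its log2 ratio was 5.54, at percentile 98.2 of the listed genes. *Meis2* (ENSMUSG00000027210, chr2:115688800-115891575, minus strand), known for its expression in the developing striatum, had 12.03 in ES cells (9.95 to 14.4, 117 reads) and 208 in forebrain (201 to 216, 3016 reads), which is 17.3-fold higher in forebrain (14.4 to 20.99). Thus the gene with the highest *Meis* value in ES cells was neither of these. *Meis3* (ENSMUSG00000041420, chr7:16760729-16771853, plus strand), known from work on hindbrain patterning, had 53.0 in ES cells (42.0 to 66.0, 79 reads) and 388 in forebrain (362 to 415, 862 reads), a 7.33-fold higher level in forebrain (5.81 to 9.34). In ES cells *Meis1* and *Meis2* were below the median of listed genes (48.9), which lay within the interval of *Meis3*, while in forebrain all *Meis* genes were above the median (62.4).

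The products of the *Pbx* genes contact HOX proteins directly. *Pbx2* (ENSMUSG00000034673, chr17:34728211-34734345, plus strand), a broadly expressed member, had the highest value of the 8 genes in both samples, with 451 in ES cells (427 to 476, 1345 reads) and 2086 in E10.5 forebrain (2044 to 2129, 9271 reads). The level in forebrain was 4.62-fold higher (4.37 to 4.90) and placed *Pbx2* at percentile 94.4 of listed genes, compared with percentile 77.0 in ES cells. *Pbx3* (ENSMUSG00000038718, chr2:34026977-34228660, minus strand) had 48.6 in ES cells (42.9 to 55.0, 255 reads) and 414 in forebrain (400 to 429, 3234 reads), 8.52-fold higher in forebrain (7.49 to 9.70). *Pbx4* (ENSMUSG00000031860, chr8:72356523-72397062, plus strand), best known for its expression in testis, was the lowest of the 8 genes in forebrain. Its RPKM was 26.98 in ES cells (20.7 to 34.3, 65 reads) and 67.1 in forebrain (58.9 to 76.1, 242 reads), a 2.49-fold difference (1.89 to 3.34). The lower limit of this interval is below 2-fold, so that *Pbx4* passed the 2-fold limit by less than its counting error.

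The *Pknox* genes encode the partners that compete with MEIS for PBX, and the paralogs differed from each other. *Pknox1* (ENSMUSG00000006705, chr17:31701718-31744638, plus strand), which is known to be expressed in most tissues, had 301 in ES cells (283 to 320, 1038 reads) and 243 in E10.5 forebrain (230 to 257, 1252 reads). It was 1.24-fold higher in ES cells (1.14 to 1.34), less than the 2-fold limit. *Pknox2* (ENSMUSG00000035934, chr9:36698570-36954899, minus strand), a paralog with a more restricted expression, had 8.11 in ES cells (5.03 to 11.9, 23 reads) and 221 in forebrain (208 to 236, 956 reads). The level of *Pknox2* was 27.3-fold higher in forebrain (18.5 to 44.2), the second largest ratio of the 8 genes. The deposited values carry a scaling per sample, and with both tables set to an equal sum of RPKM the log2 ratio of *Pknox1* moved from -0.30 to -0.03.

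Summed by subfamily, the *Meis* genes had an RPKM of 71.9 in ES cells compared with 961 in E10.5 forebrain, 13.4-fold higher in forebrain (11.3 to 15.9, from the counting error of the reads). The 3 *Pbx* genes summed to 527 and 2567, which is 4.87-fold higher (4.63 to 5.13), and the *Pknox* genes to 309 and 465, 1.505-fold higher (1.40 to 1.62). The *Meis* genes thus contributed 7.92% of the summed RPKM of the 8 genes in ES cells and 24.1% in forebrain. The share of the *Pknox* genes was 34.0% in ES cells and 11.6% in forebrain. For the *Pbx* genes the shares were closer, 58.0% and 64.3%, of which *Pbx2* alone made up 49.7% and 52.3%. Per kb of the longest transcript the summed *Meis* genes would be 17.2-fold higher in forebrain, the *Pbx* genes 5.14-fold and the *Pknox* genes 1.51-fold. For *Meis2* and *Pbx3* that transcript holds only a part of the annotated exons. As deposited, *Meis* and *Pknox* genes together had 0.72 times the summed RPKM of the *Pbx* genes in ES cells and 0.56 times in forebrain.

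Ratios between paralogs within a sample do not depend on the scaling between samples, and these too differed between ES cells and E10.5 forebrain. *Pknox1* was 37.1 times the level of *Pknox2* in ES cells (25.1 to 60.0) but 1.10 times in forebrain (1.01 to 1.197). *Meis3* was 7.74 times the level of *Meis1* in ES cells (5.30 to 11.7) and 1.07 times in forebrain (0.99 to 1.15). The order of *Meis1* and *Meis2* was opposite in both samples, with *Meis2* at 1.76 times *Meis1* in ES cells (1.24 to 2.60) and at 0.57 times in forebrain (0.54 to 0.60). *Pbx2* exceeded *Pbx3* 9.29-fold in ES cells (8.11 to 10.6) and 5.04-fold in forebrain (4.84 to 5.25). *Pbx3* and *Pbx4* were 1.80-fold apart in ES cells (1.37 to 2.42) and 6.17-fold apart in forebrain (5.41 to 7.06). Per kb of the longest annotated transcript in place of all exons, *Meis3* would be 3.67 times *Meis1* in ES cells and 0.51 times in forebrain, and *Pbx2* would be 4.92 and 2.67 times *Pbx3*. *Pbx3* would be 3.07 times *Pbx4* in ES cells and 10.53 times in forebrain, whereas *Pknox1* over *Pknox2* (36.6 and 1.08) and *Meis2* over *Meis1* (1.76 and 0.57) would move little. For these pairs the intervals of both samples do not overlap on either length, but biological variation between cultures or embryos is not included in them.

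**Figure D2:**
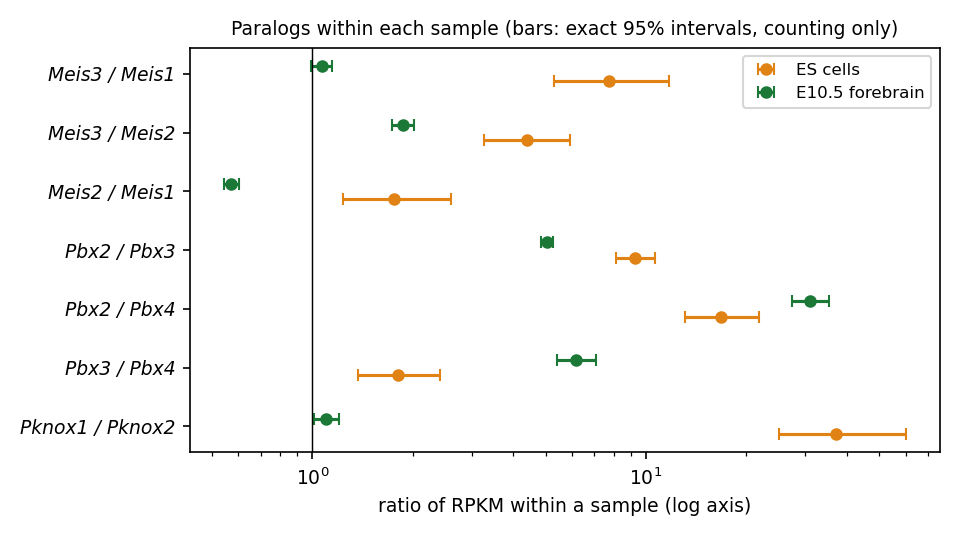
Ratio of the RPKM of 2 paralogs within the same sample (log axis) in ES cells (orange) and E10.5 forebrain (green), with bars for exact 95% intervals from the inferred reads. *Pknox1* over *Pknox2* lies at 37.1 in ES cells and near 1 in forebrain (1.10), and *Meis2* over *Meis1* lies on opposite sides of 1.

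From high to low, the RPKM in ES cells followed the order *Pbx2*, *Pknox1*, *Meis3*, *Pbx3*, *Pbx4*, *Meis2*, *Pknox2* and *Meis1*. *Meis3* and *Pbx3* did not differ beyond counting error (ratio 1.09, 0.84 to 1.41), nor did *Meis2* and *Pknox2* (1.48, 0.96 to 2.48) or *Pknox2* and *Meis1* (1.18, 0.67 to 2.00). In E10.5 forebrain the order was *Pbx2*, *Pbx3*, *Meis3*, *Meis1*, *Pknox1*, *Pknox2*, *Meis2* and *Pbx4*. *Pbx3* and *Meis3* (1.07, 0.99 to 1.15), *Meis3* and *Meis1* (1.07, 0.99 to 1.15) and *Pknox2* and *Meis2* (1.06, 0.99 to 1.15) could not be separated there. The highest and the lowest of the 8 genes were 65.9-fold apart in ES cells and 31.1-fold apart in forebrain. The order depends on the length by which reads are divided. The length behind the deposited RPKM was inferred. More low values lay near whole reads with the union of all annotated exons than with the longest transcript. That union measures 11872 bases for *Meis2* and 7394 for *Meis1*, whereas the longest annotated transcripts measure 5501 and 3428 bases. Per kb of the longest transcript, *Meis1* would reach 786 and *Meis2* 449 in forebrain, both above *Meis3* (397). In ES cells they would reach 14.8 and 25.96, both still below *Meis3* (54.2). *Pbx3* would then be at 109 in ES cells and 928 in forebrain, so that *Meis3* would be 0.50 times *Pbx3* in ES cells (0.38 to 0.64) and *Pbx3* 2.34 times *Meis3* in forebrain (2.17 to 2.53). None of the 6 neighbouring pairs named above as inseparable would remain so on this length, and *Pknox1* and *Pknox2* in forebrain would become inseparable (1.08, 0.996 to 1.18). However, the longest transcript of *Pbx3* has only 2 exons, against 10 exon blocks in the union, and that of *Meis2* has 6 against 19. Reads from all exons were still divided by these lengths, so levels of such genes can come out too high.

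Relative to all listed genes, the cofactor genes occupied percentiles 30.4 (*Meis1*) to 77.0 (*Pbx2*) in ES cells and percentiles 50.7 (*Pbx4*) to 94.4 (*Pbx2*) in E10.5 forebrain. The median was exceeded by 3 of the 8 genes (*Pbx2*, *Pknox1* and *Meis3*) in ES cells and by all 8 in forebrain, but *Meis3* and *Pbx3* in ES cells and *Pbx4* in forebrain lay within counting error of it. The tables leave out genes at 0 in both samples, so these percentiles are among listed genes. The protein-coding genes nearest to each gene on log2(RPKM + 1) in both samples, out of 19612 and over 2 samples, were *Col23a1* for *Meis1*, *Tmem176a* for *Meis2*, *Fzd8* for *Meis3*, *Gpr125* for *Pbx2*, *Vasn* for *Pbx3*, *Ppapdc3* for *Pbx4*, *Gm340* for *Pknox1* and *2610203C20Rik* for *Pknox2*. Their distance was 0.009 (*Vasn*) to 0.13 (*Gpr125*) on this scale, and a match over 2 samples is only a description of levels.

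**Figure D3:**
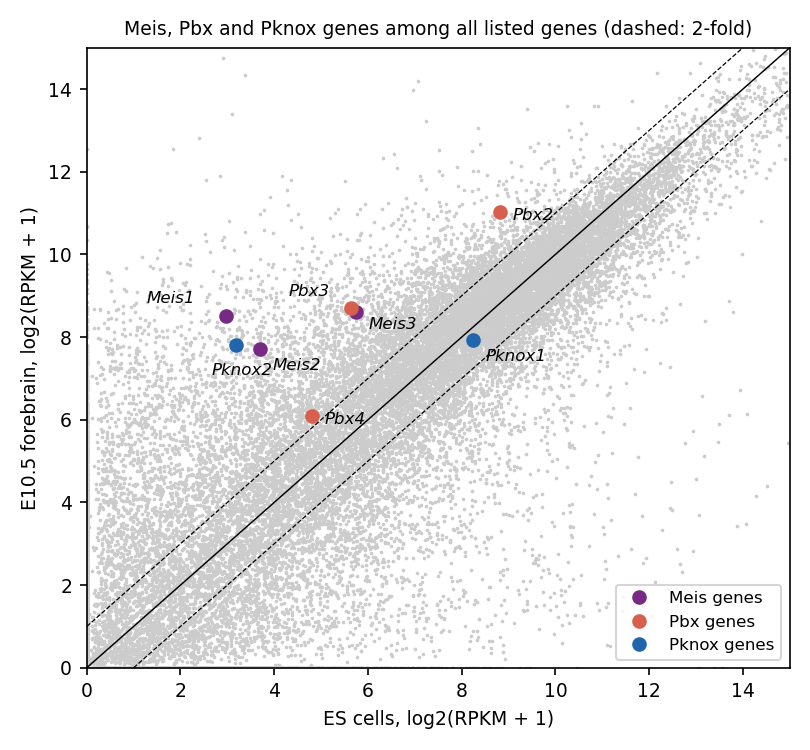
Level of every listed gene in ES cells (x axis) and E10.5 forebrain (y axis) on log2(RPKM + 1), with *Meis* genes in purple, *Pbx* genes in red and *Pknox* genes in blue. The solid line marks equal levels, the dashed lines a 2-fold difference, and genes above 15 on either axis are not drawn. Of the 8 genes, 7 lie above the upper dashed line and *Pknox1* lies near the solid line.

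The remaining TALE homeobox genes were examined in the same way. Of 9 such genes, 8 were at least 2-fold higher in E10.5 forebrain and 1 (*Tgif1*) was at least 2-fold higher in ES cells. Among all listed genes the shares were 25.8% and 23.3%. The median log2 ratio of 3.08 falls on *Irx4*, with 1 read in ES cells and 39 in forebrain (ratio 21.1, 4.43 to 1060). *Irx1*, *Irx3*, *Irx4*, *Irx5* and *Irx6* had 1 to 3 reads in ES cells, at or below the floor, so their ratios are imprecise. *Tgif1*, a repressor in TGF-beta signalling, had an RPKM of 1626 in ES cells and 590 in forebrain. That level in ES cells was above that of each of the 8 cofactor genes. Its paralog *Tgif2* had 213 and 511, and *Mkx* (Mohawk) had 68.1 and 146. Of the Iroquois genes, *Irx3* had 0.89 in ES cells from 2 reads and 337 in forebrain from 966 reads, and the 6 genes spanned 0.43 to 59.7 in ES cells, compared with 12.4 to 337 in forebrain. *Pbxip1*, which encodes a protein that binds PBX and inhibits its function, had 130 in ES cells (499 reads) and 236 in forebrain (1346 reads), a 1.81-fold difference (1.63 to 2.01) that stayed below the 2-fold limit on log2(RPKM + 1).

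Transcription factors other than HOX that are known to cooperate with MEIS or PBX proteins differed in both directions. Of 9 such genes, 5 were at least 2-fold higher in E10.5 forebrain and 2 (*Klf4* and *Pdx1*) in ES cells, compared with 25.8% and 23.3% of all listed genes. *En1* had 2.18 from 7 reads in ES cells and 8.03 from 39 reads in forebrain. *En2* had 44.35 and 24.74, less than 2-fold apart. *Pax6*, a regulator of forebrain and eye development, had an RPKM of 17.5 in ES cells and 267 in forebrain. *Dlx1*, of the ventral forebrain, had 2.26 and 255.6, and *Dlx2* had 0.43 (from 1 read) and 65.0. *Otx2* had 78.5 and 989. *Klf4*, a factor of pluripotent cells, was higher in ES cells, with 899 compared with 37.7. *Pdx1* had 5 reads in ES cells and 0 in forebrain, and *Myod1* had 1 read and 3 reads, so neither is described further. The *Hox* genes themselves, of which 36 of 39 are listed, summed to an RPKM of 297 in ES cells and 8.88 in forebrain. The 8 cofactor genes together thus had 3.05 times the summed RPKM of the *Hox* genes in ES cells and 450 times in forebrain.

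The forebrain sample also held transcripts of other cell types. All 8 head mesenchyme markers were at least 2-fold higher in E10.5 forebrain and none was at 0 in either sample. Their summed RPKM was 87.8 in ES cells and 7784 in forebrain, where *Twist1* had 1556 and *Col1a2* had 3037. The 5 erythroid markers summed to 309 in ES cells and 673349 in forebrain. For the 5 endothelial markers the sums were 603 and 1895, and 4 of the 5 were at least 2-fold higher in forebrain. Midbrain and hindbrain markers were low in forebrain, at 1.01 (*Pax8*) to 24.7 (*En2*), where 2 of 6 were at least 2-fold higher and 2 at least 2-fold lower than in ES cells (*Gbx2* at 460 in ES cells and 8.98 in forebrain). *Meis* and *Pbx* genes are known to be expressed in mesenchyme as well as in neural tissue, and the part of the other cell types in the forebrain values was not tested. In ES cells the 4 endoderm markers were at 1.34 to 3.12. Of the 4 primitive streak and mesoderm markers, *T* had 1112 and the others 0.96 to 90.1 in ES cells, and the part of such cells in the ES cell values was not tested either.

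**Figure D4:**
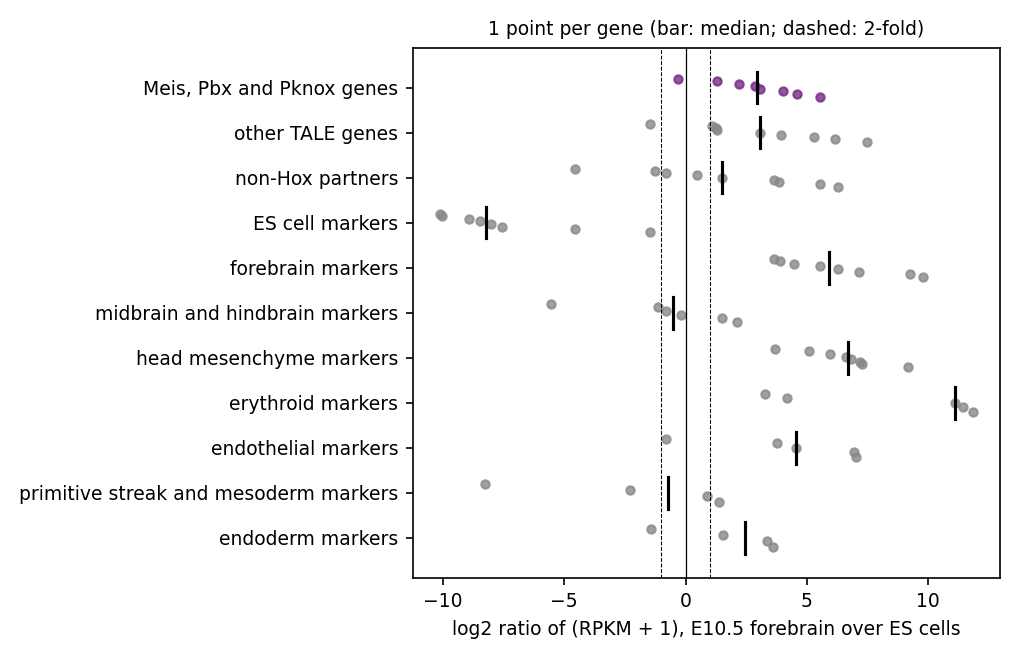
Log2 ratio of (RPKM + 1) of E10.5 forebrain over ES cells, with 1 point per gene, for the *Meis*, *Pbx* and *Pknox* genes (purple) and for the other gene lists (grey). Black bars mark medians, 2.96 for the *Meis*, *Pbx* and *Pknox* genes and 3.08 for the other TALE genes, and dashed lines mark a 2-fold difference. The median of the other TALE genes falls on *Irx4*, which had 1 read in ES cells.

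The genes that overlap or adjoin each cofactor gene were then compared, in part because the tables do not state whether reads were counted by strand. At *Meis1*, 2 genes on the opposite strand overlap the gene. *Gm16140* (chr11:18909131-18911186) was at 0 in ES cells and had an RPKM of 54.1 in E10.5 forebrain from 74 reads. That is 16.5 times the floor of 3 reads in the ES cell sample, with an interval that starts at 13.1-fold. *Gm16141* (chr11:18913820-18915157) was at 0 and 42.5 (41 reads), 9.17 times that floor, with an interval that starts at 7.13-fold. *Gm16140* shares 896 exonic bases with *Meis1*, whereas *Gm16141* shares 0. Both genes thus had the direction of *Meis1*, but total RNA includes introns, and if strand was not used in counting, their reads and those of *Meis1* transcripts cannot be told apart. At *Pbx3*, *C79798* (chr2:34143291-34158784) lies on the opposite strand without shared exonic bases but is subject to the same limit. It was at 0 in ES cells and 29.2 in forebrain from 22 reads. That is 4.92 times the floor of 3 reads, with an interval that starts at 3.68-fold. *Mapkap1*, upstream of *Pbx3*, had 558 and 965.

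Upstream of *Meis2* and on the same strand, *2700033N17Rik* (chr2:115891954-115893180) lies 0.38 kb from the gene at its nearest base. It had an RPKM of 1.69 from 1 read in ES cells and of 53.4 from 47 reads in E10.5 forebrain (ratio 31.6, 5.39 to 1272), the same direction as *Meis2*. The downstream neighbour *BC052040*, at 84.3 kb, had 179 and 153. At *Pknox1* the neighbours differed from the gene between them. *4833413E03Rik*, 5.66 kb upstream, had 134 in ES cells and 2.39 in forebrain, and *Cbs*, which encodes an enzyme of transsulfuration and lies 4.93 kb downstream, had 662 and 34.8. *Pknox1* thus had similar levels in both samples while the listed gene on either side was higher in ES cells.

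At *Pknox2* the downstream neighbour *Fez1*, a gene of axon outgrowth 12.1 kb away, was the more abundant transcript, with an RPKM of 40.2 in ES cells and of 2188 in the E10.5 forebrain, 54.5-fold higher (46.1 to 65.4). The upstream neighbour *SNORA42*, a small nucleolar RNA gene at 25.6 kb, differed in the opposite direction, with 142 in ES cells from 13 reads and 3.56 in forebrain, less than 1 read. The neighbours of *Pbx2* were closer to equal. *Gpsm3*, which shares 227 exonic bases with *Pbx2* on the same strand, had 43.2 and 49.4, *Notch4* upstream had 56.2 and 72.4, and *Ager* downstream had 25.1 and 56.3. The RPKM of *Pbx2* was thus at least 8.03 times that of each of these in ES cells and at least 28.8 times in forebrain. At *Pbx4*, *Lpar2* upstream had 63.0 and 115, and *Cilp2* downstream had 24.2 and 4.56. At *Meis3*, *Slc8a2* upstream had 45.4 and 71.6, and *Dhx34* downstream had 87.3 and 186.

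**Figure D5:**
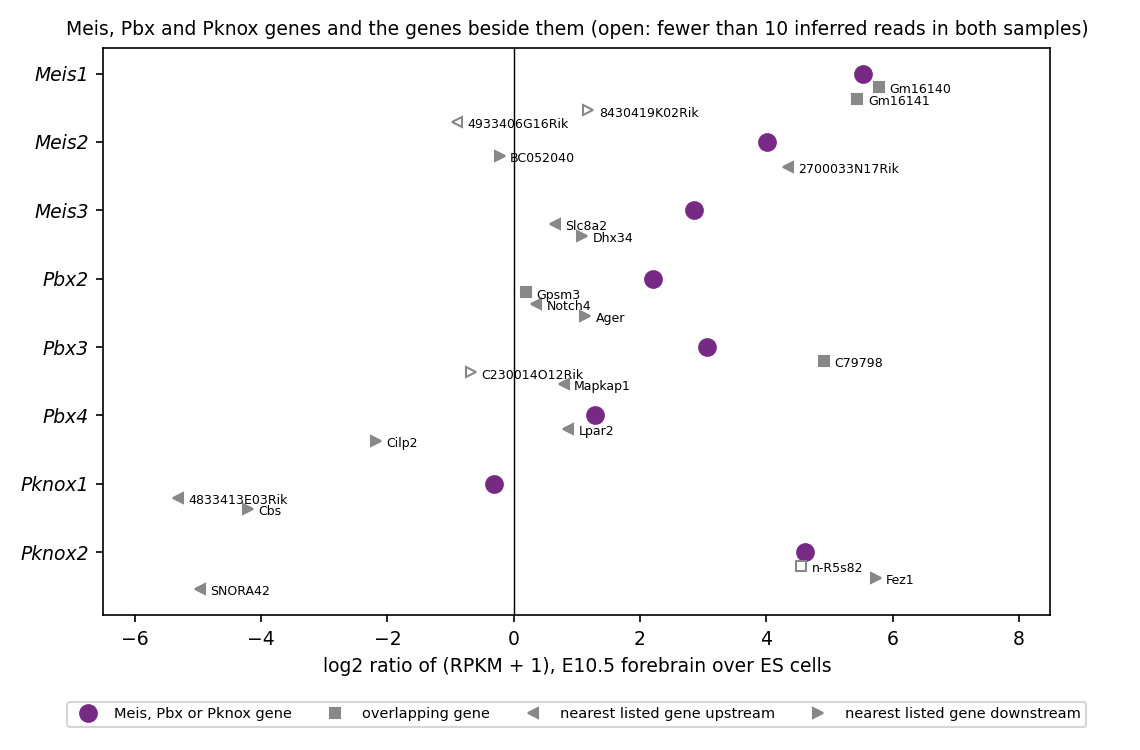
Log2 ratio of (RPKM + 1) of E10.5 forebrain over ES cells for each *Meis*, *Pbx* or *Pknox* gene (purple circles), the genes that overlap it (squares) and the nearest listed gene upstream and downstream (triangles). Open symbols had fewer than 10 inferred reads in both samples. Both genes that overlap *Meis1* lie beside it at the right, whereas both neighbours of *Pknox1* lie at the left.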

How the data were processed

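RNA-seq of 1 sample of ES cells and 1 sample of E10.5 forebrain was analysed. Per the labels and methods, total RNA was depleted of rRNAs, strand-specific libraries were made from it, and reads were mapped to NCBIM37 (mm9) and turned into values per gene with the HTSstation pipeline. The submitters' processing notes name Bowtie 0.12.7. The counting rule and its use of strand are not given in the sources used here. The RPKM deposited by the authors were used without further normalization.

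All 29311 listed genes matched the GENCODE M1 annotation of NCBIM37. RPKM multiplied by exonic length (union of exons) tended to be a whole multiple of 1.22 (ES cells) or 0.819 (E10.5 forebrain). Of low genes with up to 2500 bp of exon, 55.9% of 3914 and 57.3% of 4226 lay within 0.05 of a whole multiple (46.6% and 47.5% with the longest transcript). This step was taken as 1 read, and inferred reads were rounded, so reads shared between genes make them approximate. Tested on simulated data with 29311 genes, steps of known size were recovered with an error of at most 0.003%. Whether the step in the deposited values is 1 read or only a part of 1 read was not tested. The inferred reads and all intervals rest on the step being 1 read.

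Ratios were taken on log2(RPKM + 1), with 2-fold as the limit for a count. Folds printed with an interval are ratios of the RPKM as deposited. Levels carry exact Poisson and ratios exact binomial 95% intervals, and the intervals of summed levels are approximate. No test between samples was made. The text names the 8 genes, fixed lists of TALE genes, partners and cell type markers, overlapping and adjacent genes, and the gene nearest in level. The genes and lists were chosen with earlier results of these data known. The 3 *Pbx* genes do not cover the whole *Pbx* family. Alternatives covered the pseudocount, the scaling between samples, a filter on low values, the fold and the exonic length. Python 3.11.15, numpy 2.4.6, pandas 2.3.3, scipy 1.17.1 and matplotlib 3.10.9 were used.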

Additional observations from a re-analysis of the deposited data

How the results depend on the processing

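The count of 7 genes at least 2-fold higher in E10.5 forebrain, the count of 0 in the other direction and the direction of each gene did not change with a pseudocount of 0.1 or 5, with 4 other scalings between the samples, or when genes below an RPKM of 1 in both samples were left out. A 4-fold limit gave 6 genes. The median log2 ratio of the 8 genes ranged from 2.86 to 3.23. Division by the sum of RPKM moved the median of all genes from 0.01 to 0.26 and the log2 ratios of the summed genes to 4.00 (*Meis*), 2.56 (*Pbx*) and 0.86 (*Pknox*), against 3.72, 2.28 and 0.59 as deposited. For the summed *Pbx* genes the upper quartile gave 2.20 and scaling by the inferred reads 2.38. Among protein-coding genes alone, an alternative chosen after seeing the data, 27.9% of 19620 genes were at least 2-fold higher in forebrain and 18.9% in ES cells, with a median log2 ratio of 0.17. Division by the longest transcript in place of all exons, also chosen after seeing the data, changed the order of levels within a sample and moved the log2 ratio of the summed *Meis* genes to 4.09, but by construction no ratio of a single gene between samples. All 8 genes kept at least 10 inferred reads in both samples. No paired analysis was possible because each group has 1 sample. The depth of 41 reads for *Meis1* and 23 for *Pknox2* in ES cells limits the precision of their ratios most.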
